A study of Mus musculus with 6 samples.

Results

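The 10 genes described are the chemokine ligands Cx3cl1, Cxcl12, Cxcl14, Cxcl16, Cxcl13, Ccl4, Ccl6, Ccl7, Ccl8 and Ccl9. They were chosen by name and matched by symbol to the Ensembl identifiers in the tables. All 10 were among the 15441 genes with a value in at least 1 library.

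The study followed the transcriptome of the ipsilateral cerebral cortex after photothrombosis, in which Rose Bengal is given and a cold light source shone through the intact skull clots the vessels of the sensorimotor cortex. The animals were male C57/BL6J mice of 6 to 8 weeks. The 6 libraries comprised a sham group, operated without illumination and taken on day 7 post-operation, and a group for each of 5 times after the lesion, namely 1, 3, 7, 14 or 28 days. The RNA of 3 mice was pooled for each library, so each group had 1 library, no level has a replicate error and no p-value is given. The libraries were poly(A)-selected and strand-specific, and paired-end reads of 150 bases were taken. The authors state a mean of 33.6 M reads, and how many each library had is unknown. Values are in FPKM, fragments scaled by the length of the transcript and the size of the library, so that levels can be compared between genes per length. The tables give an FPKM for each transcript start, transcript end and splicing event. The level of a gene was taken as the largest of its summed starts, its summed ends and any single event. A gene with no event in a library is called not listed, which does not show that it was absent. Log2 ratios against sham were taken after adding 0.1 FPKM to both values, which understates the change of low genes.

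Chemokines are small secreted or membrane-anchored proteins that guide leukocytes through G protein-coupled receptors, and several also act on neurons and glia in the healthy brain. Cx3cl1, Cxcl12 and Cxcl14 are expressed constitutively in the cortex. The CC ligands Ccl4, Ccl6, Ccl7, Ccl8 and Ccl9 are products mainly of myeloid and glial cells in inflamed tissue and attract monocytes, macrophages and other leukocytes.

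The tissue label was checked against marker genes. Neuronal Snap25 ranged from 486 to 706 FPKM and oligodendrocyte Mbp from 1142 to 1591 FPKM over the 6 libraries. The neuronal gene Tubb3 was not listed in any library. The choroid plexus gene Ttr had 279 FPKM in sham, 450 on day 1, 177 on day 3, 336 on day 7, 291 on day 14 and 549 on day 28, so its level differed between libraries labelled as cortex.

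All 10 were listed on day 14, 9 on day 1, day 3 and day 7, 8 on day 28 and 7 in sham. Ligands were compared with sham where either library reached 1 FPKM, and counted as higher or lower at a log2 ratio of at least 1 in size, with genes not listed taken as 0 for the count. On day 1, 4 of 8 compared ligands were higher (Ccl4, Ccl6, Ccl7 and Ccl9), against 5.11% of all genes compared in the same way. On day 3, 5 of 8 were higher (Cxcl16, Ccl4, Ccl6, Ccl8 and Ccl9), against 8.54% of all genes. On day 7, 4 of 7 were higher (Cxcl16, Ccl4, Ccl6 and Ccl9), against 8.53%. On day 14, 5 of 8 were higher, the same genes as on day 3, against 8.97%. On day 28, 0 of 4 were higher, against 3.68%. No ligand was lower at any of the 5 time points, where the share of all genes called lower was 4.48% on day 1, 2.53% on day 3, 2.12% on day 7, 6.92% on day 14 and 2.79% on day 28. A ligand below 1 FPKM in sham could enter these counts only through a high value after stroke. Among the 4 ligands at or above 1 FPKM in sham (Cx3cl1, Cxcl12, Cxcl14 and Ccl6), Ccl6 was higher on day 1, 3, 7 and 14 (on day 1 not by its main start alone), and none was higher on day 28. Of the 11277 genes at or above 1 FPKM in sham, 2.57% were higher on day 1, 4.26% on day 3, 4.15% on day 7, 4.67% on day 14 and 1.60% on day 28. The count on day 1 was 2 with genes listed in both libraries alone, as Ccl4 and Ccl7 were not listed in sham. In RNA from whole tissue, more or fewer cells of a type and more or less RNA per cell cannot be told apart.

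**Figure D1:**
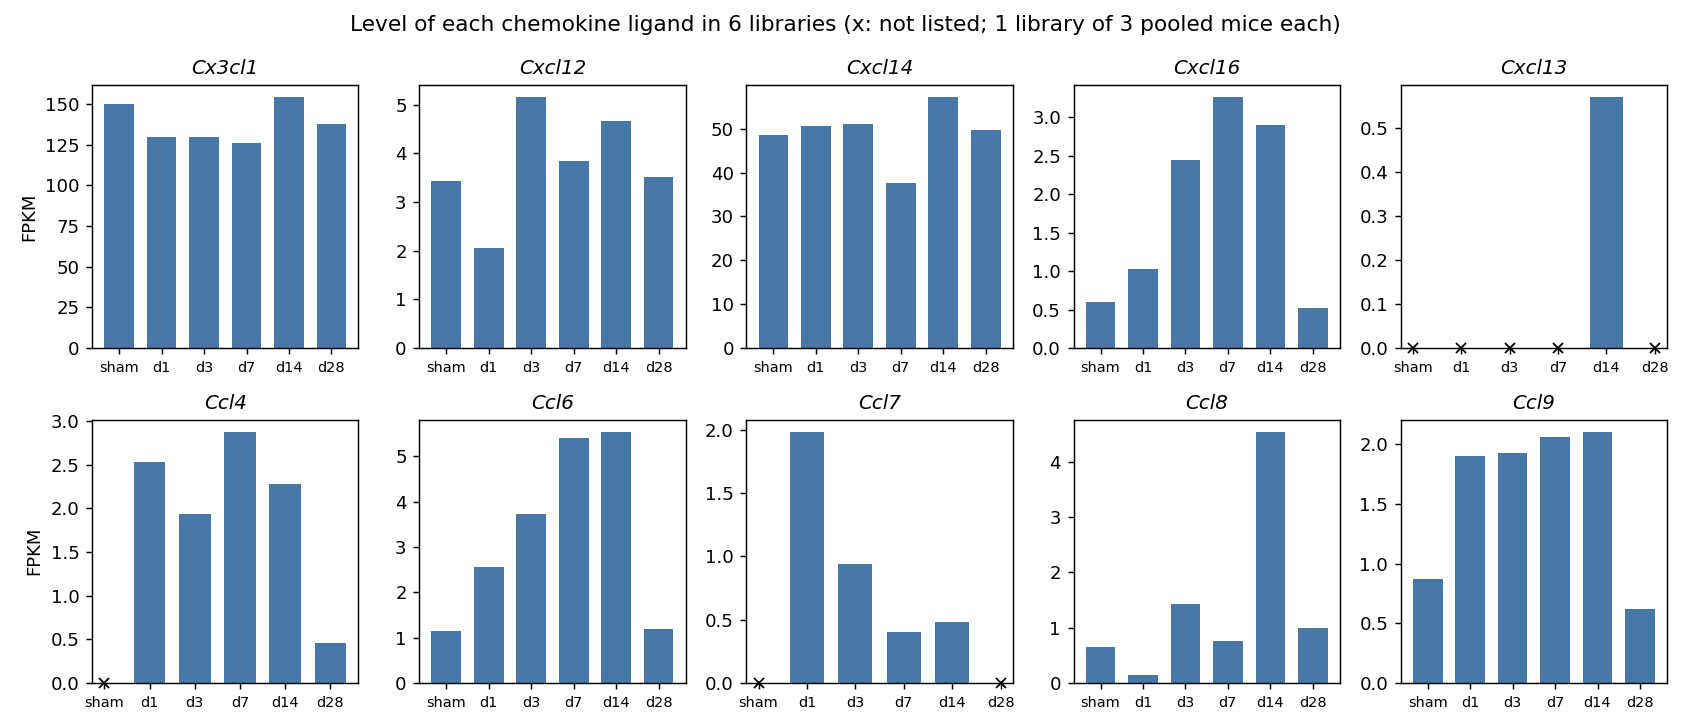
Level of each of the 10 ligands in FPKM (vertical axis, a separate scale from 0 for each gene) in the 6 libraries; each bar is 1 library of 3 pooled mice and a cross marks a gene not listed. Cx3cl1 stayed between 126 and 154 FPKM, while Ccl6 went from 1.15 FPKM in sham to 5.53 on day 14 and 1.18 on day 28.

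Cx3cl1 (fractalkine; ENSMUSG00000031778, chr8:94772009-94782427, plus strand, GRCm38) is a membrane-anchored ligand made chiefly by neurons, and its receptor Cx3cr1 sits on microglia. It had 150 FPKM in sham, 130 on day 1, 130 on day 3, 126 on day 7, 154 on day 14 and 138 on day 28. It was the most abundant of the 10 ligands in every library, and between 1.63% (sham) and 2.33% (day 1) of listed genes reached its level. The log2 ratios against sham lay between -0.25 on day 7 and 0.04 on day 14. The highest level was 1.22 times the lowest. The summed level of the 4 listed neuronal markers of 5 (Rbfox3, Snap25, Syt1 and Slc17a7) moved further: it was 1392 FPKM in sham, 1277 on day 1, 980 on day 3, 1008 on day 7, 902 on day 14 and 1172 on day 28. Snap25 made up between 50.5% and 53.9% of that sum. On day 14 the neuronal sum had a log2 ratio of -0.63 against sham and Cx3cl1 one of 0.04, while among the 4 markers Snap25 had -0.54, Syt1 -0.87, Slc17a7 -0.89 and Rbfox3 0.03; the part of neuronal RNA content in the level of Cx3cl1 was not tested.

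Nearly all Cx3cl1 RNA was assigned to the full-length transcript. The end of that transcript (chr8:94779560-94782427), annotated with a protein of 395 residues, held 99.9% of the summed ends in sham, 99.9% on day 1, 98.9% on day 3, 98.0% on day 7, 99.2% on day 14 and 99.9% on day 28. A short form annotated with 64 residues ends within the intron after the middle exon (chr8:94778028-94778366). Its end had 0.0920 FPKM in sham, 0.0839 on day 1, 1.44 on day 3, 2.36 on day 7, 0.632 on day 14 and 0.169 on day 28. The short form was thus highest on day 7, at 1.87% of the summed ends. Skipping of the middle exon (chr8:94778028-94778148) was assigned 0.102 FPKM in sham, 2.19 on day 1, 2.83 on day 3, 0.628 on day 7 and 1.96 on day 28, and was not listed on day 14. The skipped share was 0.0678% in sham and 2.20% on day 3, the highest.

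Cxcl14 (ENSMUSG00000021508, chr13:56288643-56296551, minus strand) is a chemokine that marks a class of cortical interneurons. It had 48.5 FPKM in sham, 50.5 on day 1, 51.0 on day 3, 37.7 on day 7, 57.1 on day 14 and 49.6 on day 28. It was the next most abundant ligand in all 6 libraries. Its log2 ratio ran from -0.36 on day 7 to 0.23 on day 14, and no time point passed the threshold. Shifted by the median ratio of genes near its transcript length, its ratios were -0.06 on day 1 and -0.08 on day 14. This shift, chosen after the data were seen, turned the sign at both time points, from 0.06 and 0.23. The 6 interneuron markers (Gad1, Gad2, Npy, Vip, Reln and Cck), all listed, summed to 416 FPKM in sham, 547 on day 1, 405 on day 3, 419 on day 7, 552 on day 14 and 377 on day 28, with Cck the most abundant. On day 1 and day 14 Cck had log2 ratios of 0.84 and 0.88, and the medians over the 6 genes were -0.02 and -0.04. Reln had -2.05 on day 1, past the threshold, and 0.72 on day 14. On day 7, where Cxcl14 was lowest, Cck (log2 ratio 0.32) made up 53.2% of the sum, and Gad2 (0.17) was also above sham. Npy (-0.49), Vip (-0.43), Reln (-0.54) and Gad1 (-0.06) were below sham, and the median of the 6 genes was -0.25. The part of interneuron RNA in the level of Cxcl14 was not tested.

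The level of Cxcl14 in each library is that of its end event. The tables list a start in only 2 libraries, and that start lies outside the annotated gene. The start event (chr13:56296659-56296823) begins 272 bases and stops 108 bases before the annotated 5' end. It had 6.74 FPKM in sham and 19.8 FPKM on day 7. Day 7 was therefore the library with the lowest end value and the highest start value, and by starts alone the log2 ratio on day 7 is 1.54, of opposite sign to -0.36. The RefSeq promoter of Cxcl14 (250 bases before to 50 after the start, GRCm38.p6, chr13:56296502-56296801, minus strand) is shown because most of this start event falls within it. The 143 capitals mark the bases the start event covers.
Cxcl14: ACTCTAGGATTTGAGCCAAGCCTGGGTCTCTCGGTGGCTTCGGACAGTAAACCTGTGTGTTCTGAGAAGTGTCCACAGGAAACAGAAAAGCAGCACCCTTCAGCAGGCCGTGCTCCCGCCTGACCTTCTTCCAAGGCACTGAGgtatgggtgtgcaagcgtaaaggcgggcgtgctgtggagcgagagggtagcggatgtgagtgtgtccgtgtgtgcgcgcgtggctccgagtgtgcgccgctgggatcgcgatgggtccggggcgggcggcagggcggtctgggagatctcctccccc

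Cxcl12 (stromal cell-derived factor; ENSMUSG00000061353, chr6:117168535-117181367, plus strand) is made by endothelial, perivascular and meningeal cells and by some neurons, and signals through Cxcr4 and Ackr3. It had 3.43 FPKM in sham, 2.05 on day 1, 5.15 on day 3, 3.85 on day 7, 4.67 on day 14 and 3.51 on day 28. It was lowest on day 1 and highest on day 3, and the log2 ratios of -0.71 and 0.57 at these days did not pass the threshold. The 4 endothelial markers (Pecam1, Cldn5, Flt1 and Cdh5) summed to 8.33 FPKM in sham, 10.2 on day 1, 16.6 on day 3, 8.82 on day 7, 7.04 on day 14 and 7.70 on day 28. Pecam1 made up 40.0% of the sum in sham, Cldn5 was listed only on day 1, and Flt1 was not listed on day 14. By these levels both Cxcl12 and the endothelial sum were highest on day 3. With ratios shifted by transcript length, chosen after the data were seen, Cxcl12 had 0.55 on day 3 and 0.62 on day 14. Day 14 was then its highest. The part of endothelial RNA in the level of Cxcl12 was not tested.

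The transcript end assigned to Cxcl12 differed between libraries. The annotation holds 3 coding forms that share their first coding exons and differ at the carboxyl terminus. Known as the alpha, beta and gamma forms, they have 89, 93 and 119 residues. The gamma tail is rich in basic residues and binds heparan sulphate. The coding ends are shown because these bases separate the forms (GENCODE M21, GRCm38, plus strand). Lower case marks the last 30 coding bases all 3 share (chr6:117173549-117173578), and capitals mark the bases each form adds up to and including the stop codon, at chr6:117173579-117173582 for alpha, chr6:117178583-117178598 for beta and chr6:117176086-117176179 for gamma.
Cxcl12 alpha: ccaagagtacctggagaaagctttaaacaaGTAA
Cxcl12 beta: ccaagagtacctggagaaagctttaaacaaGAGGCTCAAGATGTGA
Cxcl12 gamma: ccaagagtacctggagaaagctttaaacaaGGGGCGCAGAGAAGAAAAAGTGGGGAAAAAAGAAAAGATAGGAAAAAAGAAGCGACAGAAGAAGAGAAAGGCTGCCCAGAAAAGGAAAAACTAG

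The end of the gamma form (chr6:117176086-117181367) had 2.84 FPKM in sham, 1.87 on day 1, 3.71 on day 3, 1.08 on day 7, 0.000277 on day 14 and 2.54 on day 28. The end of the beta form (chr6:117178583-117181366) was not listed in sham and on day 1, and had 0.845 FPKM on day 3, 1.95 on day 7, 4.40 on day 14 and 0.00413 on day 28. The gamma end thus led in sham and on day 1, 3 and 28, and the beta end led on day 7 and day 14. The beta share of the summed ends was 18.6% on day 3, 64.3% on day 7 and 0.162% on day 28. No end of the alpha form was listed in any library. The summed start was above the summed ends in each library, for example 3.43 against 2.84 FPKM in sham and 3.51 against 2.55 FPKM on day 28. The last exon of the beta form lies within that of the gamma form, so reads in the shared stretch fit either end. On day 14 the log2 ratios of all genes were lower where transcripts were longer: genes near the length of the longest Cxcl12 transcript (5627 nt) had a median log2 ratio of -0.19, and genes near that of Ccl8 (511 nt) one of 0.41. The part of this trend in the assigned ends was not tested.

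**Figure D2:**
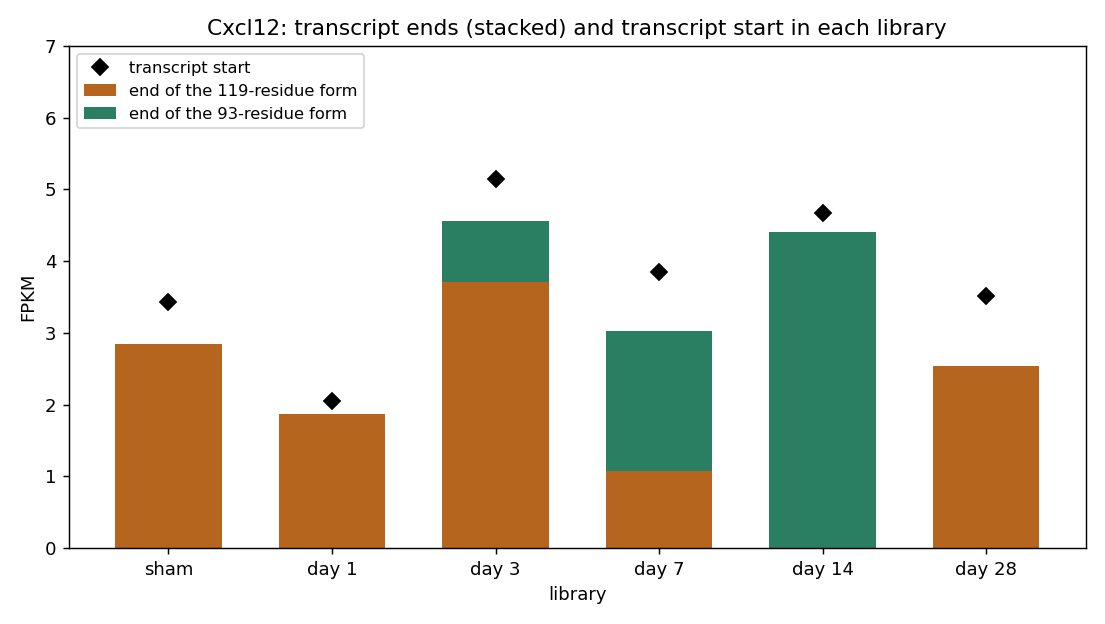
FPKM of Cxcl12 (vertical axis) in the 6 libraries; stacked bars are the ends of the 119-residue (gamma) and 93-residue (beta) forms and diamonds the transcript start, with 1 library per group. The bar on day 14 is made of the beta end at 4.40 FPKM, while the bar in sham is made of the gamma end at 2.84 FPKM.

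Cxcl16 (ENSMUSG00000018920, chr11:70453983-70459984, minus strand) is, like Cx3cl1, a membrane-anchored ligand; it binds Cxcr6 and also takes up oxidised lipoproteins in macrophages. It had 0.605 FPKM in sham, 1.03 on day 1, 2.45 on day 3, 3.26 on day 7, 2.90 on day 14 and 0.517 on day 28. Cxcl16 was higher on day 3, 7 and 14 than in sham and near the sham level on day 28. The log2 ratios were 0.68 on day 1, 1.85 on day 3, 2.25 on day 7 and 2.09 on day 14. On day 28 both values were under 1 FPKM, and the ratio of -0.19 was not counted. Sham and day 28 listed 1 end and the other libraries between 2 and 4, out of 7 ends in all. The highest day depended on the events used: by summed ends Cxcl16 had 2.45 FPKM on day 3, 1.91 on day 7 and 2.41 on day 14, with log2 ratios of 1.85, 1.51 and 1.83, so that day 7 was below day 3 and day 14, whereas by starts day 7 was highest.

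Cxcl13 (ENSMUSG00000023078, chr5:95956951-95961068, plus strand), which draws B cells through Cxcr5, was listed on day 14 alone, at 0.570 FPKM and by an end event with no start. At that level 92.3% of listed genes were as high or higher. The B cell marker Cd79a was not listed in sham and on day 1, and had 0.681 FPKM on day 3, 0.611 on day 7, 1.03 on day 14 and 0.605 on day 28. Cxcr5 was not listed in any library.

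Of the 5 CC ligands, Ccl9 and Ccl6 are neighbours on chromosome 11, 9.24 kb apart on the minus strand. Both are rodent ligands of Ccr1 made by myeloid cells. They lie in a row of 5 ligand genes with Ccl5, Ccl3 and Ccl4. Their RefSeq promoters are shown because the genes sit side by side and were both above sham from day 1 to day 14. The capitals mark shared runs of at least 10 bases within the best local alignment (GRCm38.p6; Ccl6 chr11:83593038-83593337 and Ccl9 chr11:83578587-83578886, both minus strand).
Ccl6: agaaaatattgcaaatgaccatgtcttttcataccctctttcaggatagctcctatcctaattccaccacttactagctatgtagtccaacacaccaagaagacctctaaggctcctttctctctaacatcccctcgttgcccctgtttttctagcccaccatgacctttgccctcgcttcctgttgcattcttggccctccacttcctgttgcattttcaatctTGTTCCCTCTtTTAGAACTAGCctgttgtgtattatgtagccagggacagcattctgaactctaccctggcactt
Ccl9: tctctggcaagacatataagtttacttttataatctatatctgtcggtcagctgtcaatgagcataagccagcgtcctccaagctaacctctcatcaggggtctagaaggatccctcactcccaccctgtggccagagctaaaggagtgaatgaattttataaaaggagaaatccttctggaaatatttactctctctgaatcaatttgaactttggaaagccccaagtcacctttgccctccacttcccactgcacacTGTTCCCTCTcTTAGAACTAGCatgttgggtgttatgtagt

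The alignment of the Ccl6 and Ccl9 promoters covered 40 positions without a gap, 36 of them identical (90.0%). Its score was 60, against at most 20 for the other pairs among the 7 ligands with a promoter in the table. It began 25 bases before the start of Ccl6 and 9 bases after that of Ccl9. The longest run shared by both promoters has 13 bases, lies outside this alignment and is not marked. The marked run TTAGAACTAGC was found, on either strand, in 0.0122% of 32851 promoters of the same length, and TGTTCCCTCT in 0.143%. The motif TATAAA occurs on either strand in the promoters of Ccl9, Ccl8, Cx3cl1 and Cxcl13 and in 13.6% of all promoters. It is not in the 300 bases of Ccl6. The AP-1 motif TGANTCA (7.81% of all promoters) was found, of the 7, only in the promoter of Ccl9, and the STAT motif TTCNNNGAA (8.30%) only in that of Cxcl14. These matches describe letters in a window and show no binding. Cxcl16, Ccl4 and Ccl7 had no entry in the table.

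Ccl6 (ENSMUSG00000018927, chr11:83587882-83593087) had 1.15 FPKM in sham, 2.56 on day 1, 3.72 on day 3, 5.41 on day 7, 5.53 on day 14 and 1.18 on day 28. Ccl9 (ENSMUSG00000019122, chr11:83572919-83578636) had 0.869 FPKM in sham, 1.90 on day 1, 1.93 on day 3, 2.06 on day 7, 2.10 on day 14 and 0.618 on day 28. Ccl9 was near its later level by day 1, while Ccl6 went on climbing to day 7. The log2 ratios of Ccl6 were 1.09, 1.61, 2.14 and 2.17 on day 1, 3, 7 and 14, and those of Ccl9 1.05, 1.07, 1.16 and 1.18. The ratio of the Ccl6 level to the Ccl9 level was 1.33 in sham, 1.35 on day 1, 1.93 on day 3, 2.62 on day 7, 2.63 on day 14 and 1.91 on day 28. Part of the Ccl6 level came from an internal start (chr11:83589757-83589875), which had 0.115 FPKM in sham, 0.567 on day 1, 0.137 on day 3, 0.0853 on day 7, 0.171 on day 14 and 0.0783 on day 28. By the main start alone, an alternative chosen after the data were seen, Ccl6 had 1.04 FPKM in sham and 1.99 on day 1, a log2 ratio of 0.88, which is under the threshold, and its ratio to Ccl9 was 1.19 in sham, 1.05 on day 1, 1.86 on day 3, 2.58 on day 7, 2.55 on day 14 and 1.78 on day 28. By either value the ratio of Ccl6 to Ccl9 was higher from day 3 on than in sham. With a pseudocount of 1 FPKM in place of 0.1, the ratios of Ccl9 fell below the threshold on day 1 (0.63), day 3 (0.65), day 7 (0.71) and day 14 (0.73), and that of Ccl6 on day 1 (0.72). With ratios shifted by the trend in transcript length, chosen after the data were seen, Ccl6 (0.94) and Ccl9 (0.99) were just under the threshold on day 1.

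**Figure D3:**
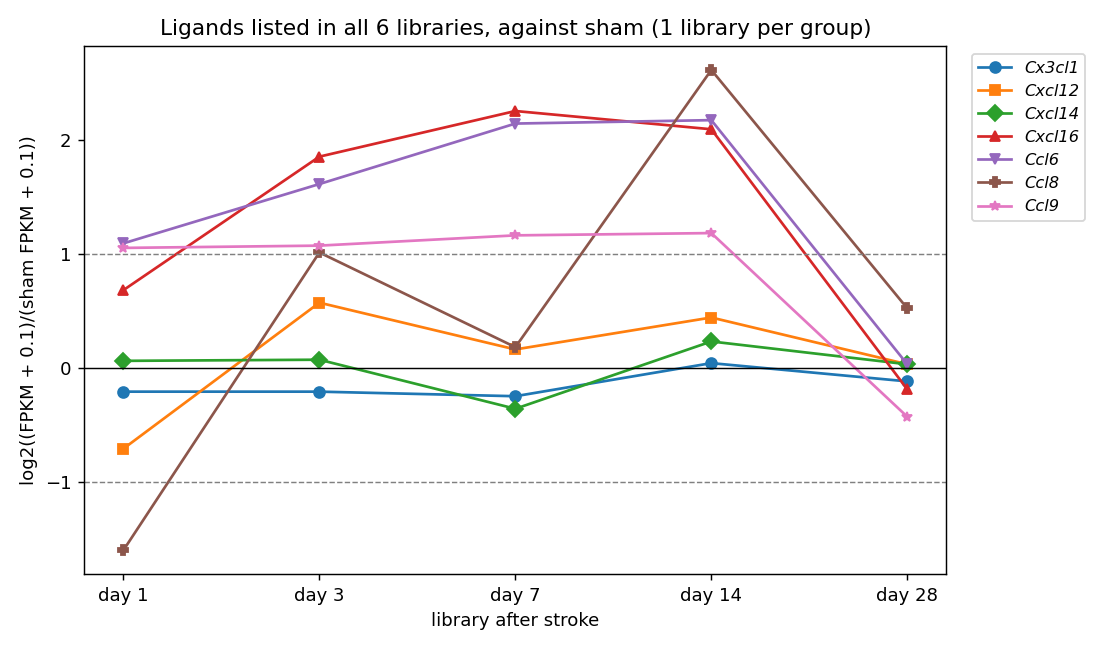
Log2 ratio against sham (vertical axis, after adding 0.1 FPKM) for the 7 ligands listed in all 6 libraries, over the 5 post-stroke libraries, which are evenly spaced on the horizontal axis; each point compares 1 library with the sham library and dashed lines mark the threshold of 1. Cxcl16 and Ccl6 lie at 2.25 and 2.14 on day 7, and Ccl8 goes from -1.60 on day 1 to 2.61 on day 14.

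Ccl4 (macrophage inflammatory protein-1 beta; ENSMUSG00000018930, chr11:83662584-83664683, plus strand) attracts monocytes and T cells. It was not listed in sham and had 2.53 FPKM on day 1, 1.93 on day 3, 2.87 on day 7, 2.28 on day 14 and 0.456 on day 28. It was the only one of the 10 ligands not listed in sham but listed on day 28. It lies 13.2 kb from Ccl3, which like Ccl4 was highest on day 7 and, unlike it, not listed on day 28. No ratio is given for Ccl4, since sham had no value.

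Ccl7 and Ccl8, the monocyte chemoattractant proteins 3 and 2, lie in another row of 6 ligand genes on chromosome 11, in the order Ccl2, Ccl7, Ccl11, Ccl12, Ccl8 and Ccl1. Ccl7 (ENSMUSG00000035373, chr11:82045712-82047525, plus strand) is a ligand of Ccr2. It was not listed in sham and on day 28, and had 1.98 FPKM on day 1, 0.938 on day 3, 0.405 on day 7 and 0.483 on day 14. Ccl8 (ENSMUSG00000009185, chr11:82115185-82116799, plus strand), which in the mouse acts through Ccr8, had 0.657 FPKM in sham, 0.150 on day 1, 1.42 on day 3, 0.760 on day 7, 4.53 on day 14 and 0.986 on day 28. Day 1 was thus the highest library for Ccl7 and the lowest for Ccl8. The nearest ligand genes, Ccl2 at 8.26 kb from Ccl7 and Ccl12 at 11.8 kb from Ccl8, were also highest on day 1, so Ccl8 differed in this from the other 3 listed genes of the row. The log2 ratios of Ccl8 were 1.01 on day 3 and 2.61 on day 14. On day 1 and day 7 both libraries were under 1 FPKM and the ratios of -1.60 and 0.18 were not counted. The value on day 3 was at the threshold. It was below the threshold with a pseudocount of 1 FPKM (0.55) and after shifting by the length trend (0.96). Rescaling each library to a median log2 ratio of 0 also left it below (0.99). On day 14, shifting by the length trend left 2.20. The level of Ccl8 in sham rested on an end event alone. The promoter of Ccl8 (RefSeq, GRCm38.p6, chr11:82114935-82115234, plus strand) is shown for this opposite order, with TATAAAA in capitals.
Ccl8: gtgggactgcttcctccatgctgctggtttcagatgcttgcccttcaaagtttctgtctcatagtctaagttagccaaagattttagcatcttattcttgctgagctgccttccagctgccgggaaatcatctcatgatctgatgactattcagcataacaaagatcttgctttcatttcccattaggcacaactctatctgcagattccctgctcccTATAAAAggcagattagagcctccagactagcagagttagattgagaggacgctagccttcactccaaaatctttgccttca

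**Figure D4:**
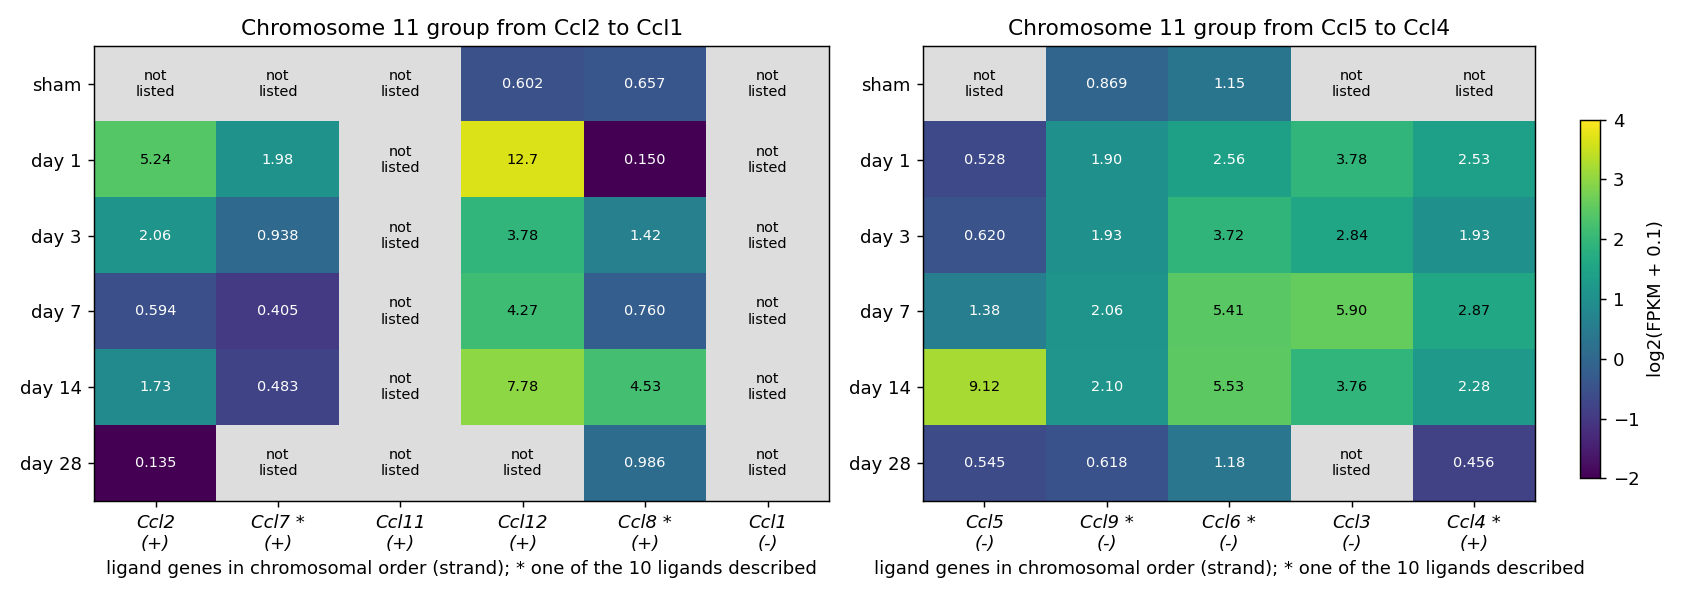
FPKM (printed in each cell, coloured by log2 after adding 0.1 FPKM) of the ligand genes of 2 rows on chromosome 11, in chromosomal order on the horizontal axis, in the 6 libraries on the vertical axis, with 1 library per group; grey cells are not listed. In the row from Ccl2 to Ccl1, Ccl2, Ccl7 and Ccl12 are brightest on day 1 and Ccl8 is darkest there, at 0.150 FPKM.

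Few receptors of the ligands had a value. Cx3cr1, the receptor of Cx3cl1, was listed at 0.0980 FPKM on day 1 and 1.84 FPKM on day 14 and nowhere else. Cx3cr1 is abundant in resting microglia, so a gene not listed in sham was not necessarily silent. Ccr2, the receptor of Ccl7 on monocytes, had 0.199 FPKM on day 1, 0.140 on day 3 and 0.0564 on day 7. The decoy receptor Ackr2, which clears inflammatory CC ligands, had 0.871 FPKM in sham, 0.314 on day 1, 0.395 on day 3, 0.122 on day 7, 0.875 on day 14 and 0.494 on day 28. Ackr2 was lowest on day 7 but stayed under 1 FPKM throughout. Ccrl2 had 0.146 FPKM on day 3, 0.520 on day 7 and 0.262 on day 14. Cxcr4, Ackr3, Cxcr5, Cxcr6, Ccr1, Ccr3, Ccr8, Ackr1 and Ackr4 had no event under their own identifiers.

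Events of some missing genes carried the identifier of an overlapping gene. Of 28 genes on the lists with no event of their own, 4 had starts or ends that match their annotated exons exactly under another identifier (Ackr3, Ackr1, Itgam and Pdgfra). The events at the exons of Ackr3, the scavenger receptor of Cxcl12, were filed under Gm28723 and had 1.85 FPKM in sham, 4.41 on day 1, 3.67 on day 3, 2.56 on day 7, 2.76 on day 14 and 2.57 on day 28. Read in this way, Ackr3 was highest on day 1, with a log2 ratio of 1.21, the time point at which Cxcl12 was lowest. The macrophage integrin Itgam, filed under Gm45700, had 3.92 FPKM in sham, 3.96 on day 1, 17.3 on day 3, 16.8 on day 7, 6.24 on day 14 and 4.64 on day 28. For Ackr1 the match was an end on day 7 alone, at 7.13 FPKM, under the identifier of the neighbouring gene Cadm3. These matches were looked for after the values were seen and enter no count.

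The proteases that process these ligands followed their own courses. Adam10 and Adam17, which shed Cx3cl1 and Cxcl16 from the cell surface, did not pass the threshold. Adam10 had 13.1 FPKM in sham and was highest on day 3, at 17.3 FPKM. Adam17 had 3.74 FPKM in sham, 2.77 on day 1, 7.33 on day 3, 6.98 on day 7, 3.99 on day 14 and 3.59 on day 28. Both were thus highest on day 3, with log2 ratios of 0.40 and 0.95. Dpp4, which inactivates Cxcl12 by removing its amino-terminal residues, had 1.5 FPKM in sham, 1.18 on day 1, 1.36 on day 3, 0.799 on day 7, 0.0459 on day 14 and 0.626 on day 28. Dpp4 was lower on day 14 (log2 ratio -3.45, 1 of 4 compared proteases) and day 28 (-1.14, 1 of 3). The share of all genes called lower was 6.92% on day 14 and 2.79% on day 28. The gelatinases Mmp2 and Mmp9, which cleave Cxcl12, were not listed in sham. Mmp9 had 0.569 FPKM on day 1, 0.697 on day 3, 0.729 on day 7, 0.849 on day 14 and 0.0323 on day 28. Of the 4 proteases compared, 1 was higher on day 3 (8.54% of all genes), day 7 (8.53%) and day 14 (8.97%), namely Mmp2, which entered only through its values after stroke.

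Among 28 other chemokine ligands, 18 were listed in at least 1 library and 5 in every library (Ccl25, Ccl27a, Ccl28, Cxcl5 and Pf4). Of those compared, 7 of 11 were higher on day 1 (5.11% of all genes), 7 of 9 on day 3 (8.54%), 6 of 9 on day 7 (8.53%), 8 of 10 on day 14 (8.97%) and 1 of 4 on day 28 (3.68%), and none was lower. Most of these entered only through the post-stroke library: among the 4 at or above 1 FPKM in sham (Ccl25, Ccl27a, Ccl28 and Pf4), 0 were higher on day 1 (2.57% of all genes under this filter), 2 on day 3 (4.26%), 1 on day 7 (4.15%), 2 on day 14 (4.67%) and 1 on day 28 (1.60%). Ccl27a was the most abundant of them on day 14, with 20.8 FPKM in sham, 24.4 on day 1, 19.7 on day 3, 37.6 on day 7, 56.5 on day 14 and 19.4 on day 28. Its log2 ratio on day 14 was 1.44, while Ccl28 stayed between 15.4 and 21.6 FPKM. The platelet chemokine Pf4 was highest on day 3, at 8.28 FPKM against 2.09 FPKM in sham. Ccl25 had 1.31 FPKM in sham and 2.80 FPKM on day 28, where it was the only higher chemokine ligand of all those compared (log2 ratio 1.04). Cxcl5 was under 1 FPKM in both libraries on that day, so its log2 ratio of 1.87 was not counted. The neutrophil attractant Cxcl5 had 0.0480 FPKM in sham, 1.18 on day 1, 1.98 on day 3, 1.01 on day 7, 2.32 on day 14 and 0.439 on day 28, and Cxcl1, of the same class, had 0.781 FPKM in sham, 2.72 on day 1, 0.252 on day 3 and 0.751 on day 14, and was not listed on day 7 and day 28. Like Cxcl13, the genes Cxcl9 (0.455 FPKM), Ccl17 (0.850 FPKM) and Ccl22 (0.239 FPKM) were listed on day 14 alone. Ccl22 and Ccl17 flank Cx3cl1 on chromosome 8, at 20.3 and 28.0 kb, so the most abundant ligand lies between a pair of genes not listed in 5 of 6 libraries.

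Marker genes of several cell types also changed between libraries. The 6 monocyte and macrophage markers, of which Itgam was not listed, summed to 12.3 FPKM in sham, 19.0 on day 1, 166 on day 3, 401 on day 7, 224 on day 14 and 32.4 on day 28. Lyz2 made up 54.6% of this sum in sham, 89.1% on day 7 and 80.8% on day 28. On day 7 the log2 ratio was 5.71 for Lyz2, 2.76 for Cd68 and 3.24 for Adgre1. Ly6c2 and Ccr2, not listed in sham, had their lowest listed levels on day 7, at 0.911 and 0.0564 FPKM. Ly6c2 was highest on day 14 (3.56 FPKM) and Ccr2 on day 1 (0.199 FPKM). On day 28 Lyz2 (1.94) was above sham and Cd68 (-0.27) and Adgre1 (-0.32) were below it, while Ly6c2, not listed in sham, had 1.67 FPKM, so the 4 markers compared were divided. The macrophage sum was highest on day 7, as Cxcl16 was by starts but not by summed ends. On day 1 Ccl6 and Ccl9 had log2 ratios of 1.09 and 1.05, and the macrophage sum had one of 0.62. With the length shift those of Ccl6 and Ccl9 were 0.94 and 0.99, under the threshold.

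Other lists had other time courses. The neutrophil markers summed to 1.37 FPKM in sham, 17.7 on day 1, 5.61 on day 3, 6.43 on day 7, 12.2 on day 14 and 2.22 on day 28, with Ly6g and Mpo not listed in any library. The sum of day 1 was made mostly of S100a8 and S100a9, while Csf3r, listed in each library, had a log2 ratio of 0.07 on day 1 and was highest on day 7 (2.06). S100a9, at 10.1 FPKM on day 1 and 5.32 on day 14, was listed in no other library, so the other sums lack it. The border and perivascular macrophage markers, led by Mrc1 in sham, summed to 3.00 FPKM in sham, 3.74 on day 1, 9.85 on day 3, 8.33 on day 7, 2.91 on day 14 and 4.04 on day 28. On day 14, where Ccl8 was highest, F13a1 was not listed, and the 3 others had log2 ratios of 0.30 (Mrc1), 0.31 (Cd163) and 0.55 (Lyve1), so the sum of that day lacks 1 of its genes. The T and NK cell markers summed to 3.20 FPKM in sham, 1.83 on day 1, 1.49 on day 3, 2.78 on day 7, 5.94 on day 14 and 4.45 on day 28, of which Cd4 made up 74.5% or more, and Cd3g and Cd8a were not listed in any library. Cd3e (0.131 FPKM) and Nkg7 (0.994 FPKM) were listed on day 14 alone, while Trac had 0.644 FPKM in sham, 0.387 on day 14 and 0.501 on day 28. The pericyte and fibroblast markers, led by Rgs5 in sham and by Dcn on day 14, summed to 44.0 FPKM in sham, 42.5 on day 1, 98.1 on day 3, 104 on day 7, 99.6 on day 14 and 41.8 on day 28. On day 3 the log2 ratios were 2.62 for Col1a1, 1.75 for Col1a2, 1.59 for Lum and 1.03 for Dcn. Pdgfrb (0.43) and Rgs5 (0.46) were under the threshold on that day and passed it at no other time point. The astrocyte markers, led by Slc1a3 in sham and by Gfap after stroke, summed to 351 FPKM in sham, 578 on day 1, 1040 on day 3, 731 on day 7, 651 on day 14 and 418 on day 28. The oligodendrocyte markers, led by Mbp, stayed between 1418 and 2018 FPKM, and of the precursor markers only Cspg4 was listed under its own identifier, between 1.10 and 3.41 FPKM. Pdgfra, filed under Mir7025, had 10.8 FPKM in sham, 9.68 on day 1, 11.3 on day 3, 10.6 on day 7, 5.36 on day 14 and 8.47 on day 28, and so was lowest on day 14. The oligodendrocyte sum was within a log2 ratio of 1 of sham in each library, whereas the astrocyte sum passed 1 on day 3 and day 7 through Gfap alone (3.02 and 2.30), with medians over the 5 astrocyte genes of 0.38 and 0.37. The part of cell content in the ligand levels was not tested.

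**Figure D5:**
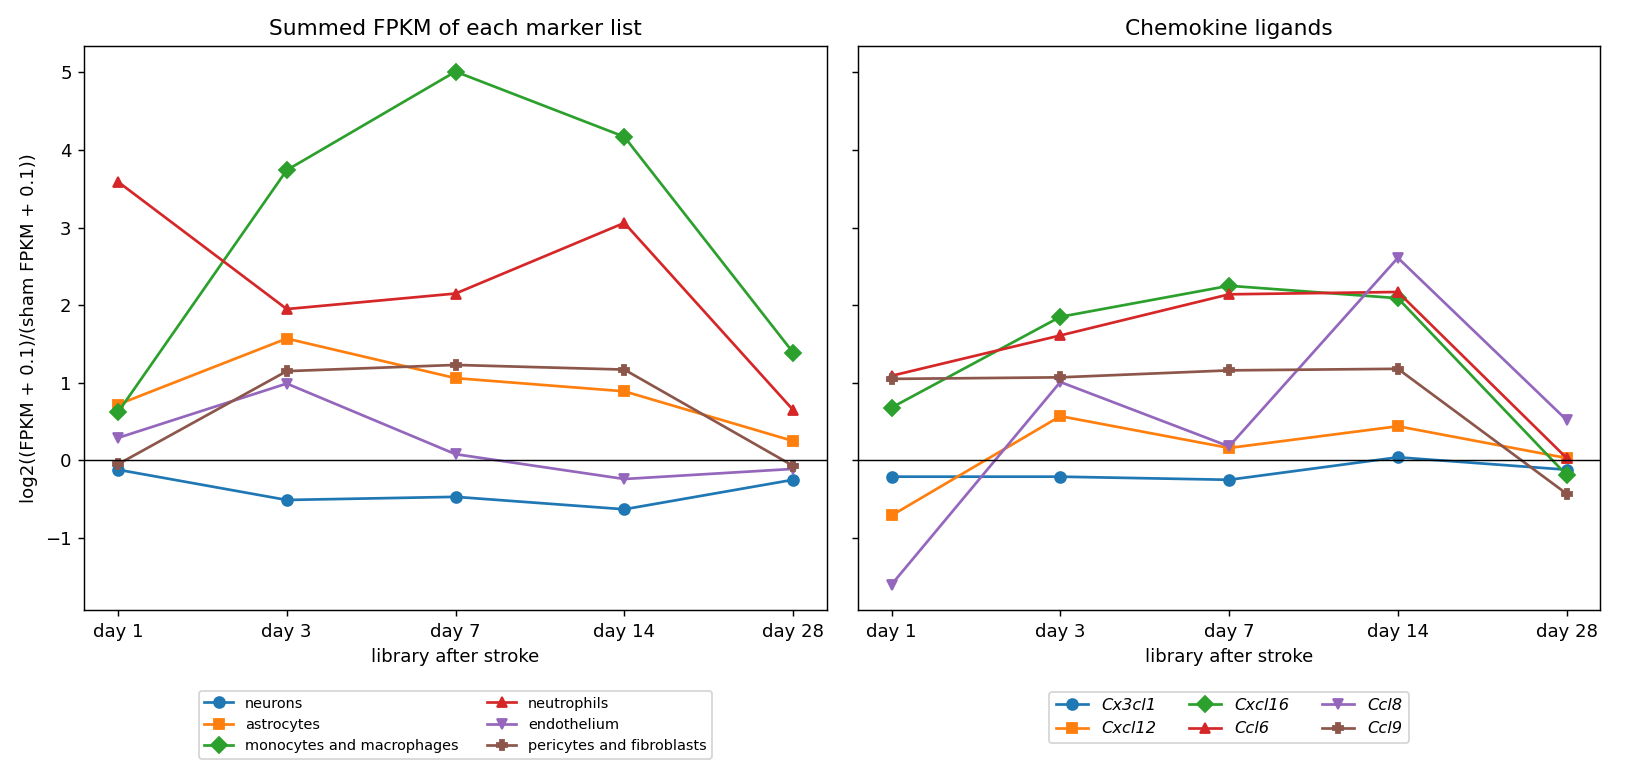
Log2 ratio against sham (vertical axis, after adding 0.1 FPKM) of the summed FPKM of 6 marker lists (left) and of 6 ligands (right) over the 5 post-stroke libraries, evenly spaced on the horizontal axis, with 1 library per group. The monocyte and macrophage sum, most of it Lyz2, reaches 5.01 on day 7 against a median of 3.24 over its compared genes, and the neuronal sum is lowest on day 14 at -0.63.

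Genes with the most alike time course were found by the root mean square difference between the 5 log2 ratios, over the 11565 genes listed in all 6 libraries and at 1 FPKM or more in at least 1, of which 7 were ligands described here. With 5 values per gene, all taken against the same sham library, many genes lie close together and the measure is a description. Nearest to Cx3cl1 were B3gat1 (difference 0.017), Rapgefl1 (0.045) and Mrps31 (0.050). Nearest to Cxcl14 were Rhbdd2 (0.054), Ssr2 (0.056) and Ypel5 (0.060). Nearest to Cxcl12 were Tgds (0.107), Bcam (0.128) and Itm2a (0.136). The distance to the nearest gene was thus smallest for Cx3cl1 among these 3 ligands.

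For Cxcl16 the nearest gene was Lgals9 (0.093), and Ptpn6 (0.212) was also close. Lgals9 had 2.66 FPKM in sham, 3.94 on day 1, 9.48 on day 3, 13.9 on day 7, 11.9 on day 14 and 2.52 on day 28, the same order of libraries as Cxcl16 by the gene value used. For Ccl6 the nearest were Col5a2 (0.167), Emp3 (0.221) and Cxcl16 (0.243). Ccl6 was in turn at rank 7 for Cxcl16, while its neighbour Ccl9 was at rank 206 for Ccl6. For Ccl9 the nearest were Card19 (0.142), Myd88 (0.162) and Arl5c (0.185). For Ccl8 the nearest was Apoe (0.218), and the next were Ncaph (0.672) and Cwh43 (0.672), so Apoe stood closer than any other gene. The Ccl8 ratios of day 1, day 7 and day 28 compare values under 1 FPKM, and its sham level rested on an end event alone. Apoe had 716 FPKM in sham, 287 on day 1, 1386 on day 3, 855 on day 7, 3534 on day 14 and 1212 on day 28. Both Ccl8 and Apoe were lowest on day 1, higher on day 3 than on day 7 and highest on day 14, at levels far apart.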

How the data were processed

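The data are 6 RNA-seq libraries of mouse ipsilateral cortex, 1 per group, each from the pooled RNA of 3 mice. The deposited values are FPKM, given by the authors for each transcript start, transcript end and splicing event on mm10; events at 0 are left out of the tables. The submitters' processing notes name Trimmomatic 0.30, HISAT2 2.0.1 and HTSeq 0.6.1; the tool that gave the event FPKM is not given in the sources used here. From these, gene levels were built as the largest of the summed starts, the summed ends and any single event of an Ensembl identifier, a construction picked in earlier work on these data with the study's published gene lists in view. Levels and counts were described without a test, at a log2 ratio of 1 and a minimum of 1 FPKM in either library. Genes were placed with GENCODE M21, and promoters were RefSeq's. Named genes were the 10 ligands, fixed lists of receptors, proteases, other ligands and cell type markers, and the 3 genes nearest in profile. Some items of these lists are withheld, and the results that need them are not reported here. Of the other ligands, Ccl2, Ccl3 and Ccl12 were named as chromosomal neighbours. The members and lists were chosen with earlier results of these data known. Promoter motifs, the search under other identifiers, the main start of Ccl6 and the length shift were chosen after the data were seen. Alternatives covered the pseudocount, gene value, span, filter, scaling, listing and threshold. The calculation was tested on simulated data and run with Python 3.11.15, numpy 2.4.6 and matplotlib 3.10.9.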

Additional observations from a re-analysis of the deposited data

How the results depend on the processing

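Of 130 counts under an alternative, 114 stayed within 1.5 times the value reported, and 16 did not. Many that stayed compare 0 with 0, as no ligand was lower at any time point and none was higher on day 28. The tally is therefore no measure of how stable the counts above 0 are. The number of higher ligands on day 1 went from 4 to 2 with a pseudocount of 1 FPKM, with only genes listed in both libraries, with a threshold of 2, and with ratios shifted by transcript length bin, an alternative chosen after the data were seen. On day 3 it went from 5 to 3 with a pseudocount of 1 FPKM and to 1 with a threshold of 2. With a minimum of 3 FPKM, the higher ligands numbered 0 on day 1, 1 on day 3, 2 on day 7 and 2 on day 14; fewer ligands were then compared. Without a minimum, 1 ligand was higher on day 28 and 1 lower on day 1. With summed starts, 1 ligand was lower on day 1, 1 on day 3, 1 on day 14 and 1 on day 28; that ligand was Cxcl14, whose start was listed only in sham and on day 7. Of 319 single log2 ratios under an alternative, 307 kept their side of the threshold, 11 no longer passed it, 1 newly passed it with the opposite sign and 0 of the called ratios changed sign. The alternatives on the minimum and on listing choose which ligands are compared and cannot change a ratio, so their entries among the 307 were fixed in advance. The 11 belonged to Ccl6, Ccl8 and Ccl9, with Ccl6 on day 1 at 0.88 by its main start, an alternative also chosen after the data were seen. Cxcl14 on day 7, not called, went from -0.36 to 1.54 with summed starts. Rescaling moved the median of genes at or above 1 FPKM in both libraries by at most 0.09 on the log2 scale, on day 14. No paired analysis was possible because each group holds 1 library. Without a known depth per library no detection floor is given, and 1 library per group leaves every difference without a replicate check.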
